A study of Mus musculus with 48 samples.

Results

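The 41 genes examined here encode proteins of presynaptic vesicle release and members of the same protein families. They were chosen by name, with earlier results of these data known. They comprise 14 synaptotagmins, 4 SNARE proteins, 6 regulators of SNARE assembly, 6 active zone scaffold proteins, 3 Rab3 GTPases, 3 synapsins and 5 other vesicle membrane proteins. All 41 were among the 47569 genes present in both RNA tables, and all 41 passed the filter on low counts in both materials. The mice were C57BL/6J adults aged 4-6 months, of the genotypes Setd1b cKO (conditional knockout) and Control. Setd1b encodes a histone H3 lysine 4 (H3K4) methyltransferase. The series held 48 libraries. Neuron RNA, labelled as hippocampal CA neurons, had 3 cKO and 3 Control libraries, and RNA of the whole hippocampal CA tissue had 6 of each. ChIP-seq of sorted neuronal nuclei gave 4 libraries per genotype for H3K4me3 and for H3K4me1, 4 cKO and 3 Control libraries for H3K27ac, and 3 cKO and 4 Control libraries for H3K9ac. The promoter driving Cre, the alleles carried by the controls and the number of animals behind a library are not given in the sources used here. Where libraries of a group are not separate animals, the p-values measure a spread that may be technical.

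Transmitter release begins when a synaptic vesicle docks at the active zone, a patch of presynaptic membrane organised by the scaffold proteins Rim, Bassoon and Piccolo. The vesicle SNARE synaptobrevin (Vamp) pairs with syntaxin and Snap25 on the plasma membrane, Munc13 and complexin prepare and hold this assembly, and calcium binding to synaptotagmin triggers fusion. In neurons, broad H3K4me3 domains mark the start sites of many active genes, while H3K4me1 is known from enhancers and from the flanks of promoters.

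RNA libraries held 55.7 to 69.1 M counts for neurons and 14.9 to 20.1 M for whole CA, and ChIP libraries held 24.4 to 41.6 M tags. Whole-gene counts of Setd1b were not lower in cKO: the log2 fold change was 0.25 in neuron RNA (edgeR adjusted p = 0.361) and 0.59 in whole CA RNA (adjusted p = 0.00415, higher). These counts cannot show which part of the gene was deleted, so "cKO" here means the libraries labelled cKO. In whole CA RNA, Xist, expressed from the X chromosome in females, was at 484 CPM (counts scaled to equal library totals) in cKO replicate 6 and 596 CPM in Control replicate 4, and those libraries had 2 and 1 counts of the Y-linked Ddx3y. Every neuron RNA library held both transcripts, at 1391 to 2017 CPM for Xist and 31.8 to 70.3 CPM for Ddx3y. Results in whole CA RNA are given with and without the 2 high-Xist libraries where the call changed.

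In neuron RNA, 1 of the 41 genes was called, Syt17, and it was lower in cKO. Syt17 (ENSMUSG00000058420, chromosome 7, 118380713 to 118448583 in GRCm38.p6) encodes a member of the synaptotagmin family. It stood at 91.3, 77.8 and 90.5 CPM in Control replicates 1 to 3 and at 62.0, 58.2 and 69.3 CPM in cKO replicates 1 to 3. Every cKO library lay below every Control library. In the edgeR fit this was a log2 fold change of −0.47 (SE 0.10, adjusted p = 0.0379). Over all 19622 genes tested, 2.75% were called, 2% lower and 0.744% higher. The call was lost when cKO replicate 1, cKO replicate 2, Control replicate 1 or Control replicate 3 was left out, with adjusted p up to 0.161.

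The other 40 genes did not pass the test in neuron RNA. The median log2 fold change of all 41 was −0.05, beside 0.02 over all genes tested. It moved to −0.004 without cKO replicate 1, −0.11 without cKO replicate 2 and −0.07 without Control replicate 3. Of the 41 values 27 were negative (65.9%), beside 46.5% of all genes. An unadjusted p under 0.05 was reached by 5 of the 41 (12.2%), beside 17.2% of all genes. All 5 were lower, so by direction the shares were 12.2% lower beside 9.05%, and 0% higher beside 8.17%. Syt3, a synaptotagmin, stood at 139, 109 and 115 CPM in Control and 102, 96.0 and 98.6 CPM in cKO, a log2 fold change of −0.31 (SE 0.10, adjusted p = 0.169). Syt2, a fast calcium sensor, stood at 18.1, 22.9 and 18.9 CPM in Control and 13.2, 17.9 and 16.4 CPM in cKO (log2 fold change −0.35, SE 0.13, adjusted p = 0.230). Both genes had no overlap between the genotypes. Unc13a, which encodes the priming factor Munc13-1, stood at 896, 700.1 and 753 CPM in Control and 612, 604 and 711 CPM in cKO. Its highest cKO library overlapped the lowest Control library, and its log2 fold change was −0.30 (SE 0.12, adjusted p = 0.249). The genotypes did not overlap for 6 of the 41 genes, Syt17, Syt13, Syt3, Syt2 and Syp lower and Pclo higher, beside 23.6% of all genes, 11.1% lower and 12.5% higher.

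**Figure D1:**
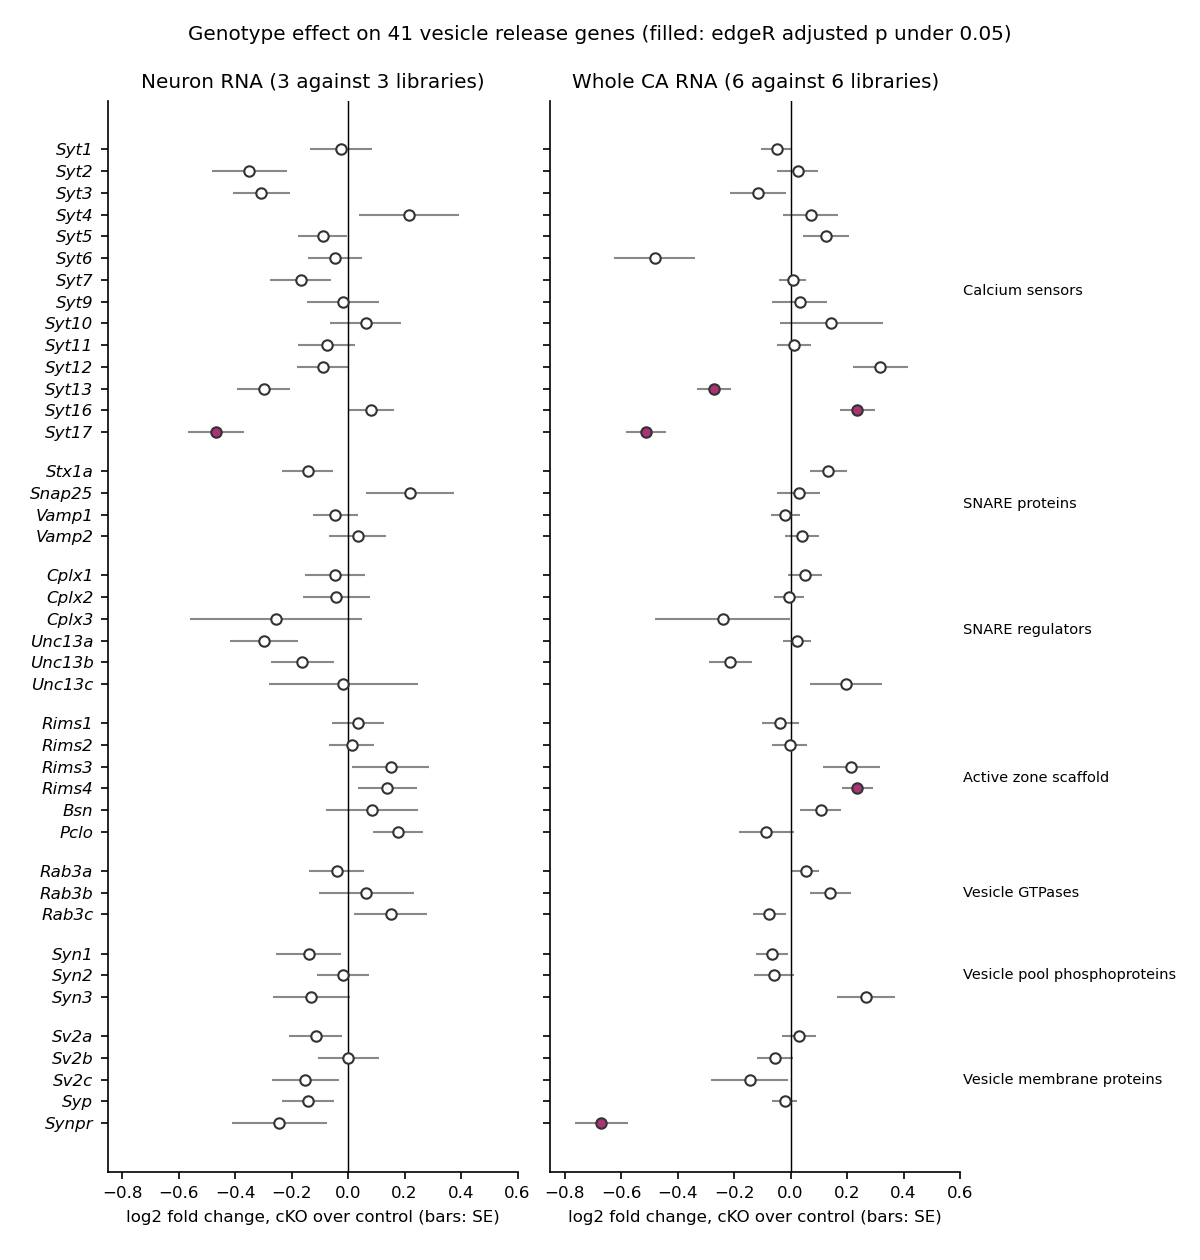
Each point is the log2 fold change of 1 gene, cKO over Control, with its SE, in neuron RNA (left) and whole CA RNA (right), grouped by role, and filled points passed an edgeR adjusted p under 0.05. Syt17 is filled on the left, and Syt17, Syt13, Synpr, Rims4 and Syt16 on the right. The group named calcium sensors holds all 14 synaptotagmins by family, and some of them, such as Syt13, do not bind calcium.

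In whole CA RNA, 5 of the 41 genes were called: Syt17, Syt13 and Synpr fell in cKO, and Rims4 and Syt16 rose. Over all 15362 genes tested, 4.17% were called, 2.79% lower and 1.38% higher. The median log2 fold change was 0.01 over the 41 genes and −0.003 over all genes tested, and the former ran from −0.01 to 0.03 with 1 library left out. With 6 libraries per genotype, values are given below as the lowest, median and highest.

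Syt17 was at 85.7, 93.9 and 101 CPM in Control and 60.3, 63.0 and 75.6 CPM in cKO. The genotypes did not overlap, with a log2 fold change of −0.51 (SE 0.07) and an adjusted p of 0.000177. Synpr (ENSMUSG00000056296, chromosome 14, 13284780 to 13615469) encodes synaptoporin, a vesicle membrane protein related to synaptophysin. It was at 81.9, 99.0 and 107 CPM in Control and 50.6, 58.4 and 78.4 CPM in cKO, again with no overlap. Its log2 fold change was −0.67 (SE 0.09, adjusted p = 0.000208). These were the only members of the 41 whose genotypes did not overlap in whole CA, where 3.21% of all genes did not overlap and 1.78% were lower without overlap. Syt13 (ENSMUSG00000027220, chromosome 2, 92915101 to 92956051) encodes a synaptotagmin that does not bind calcium. It was at 222, 265 and 294 CPM in Control and 197, 213 and 238 CPM in cKO, with overlap (log2 fold change −0.27, SE 0.06, adjusted p = 0.0133).

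Rims4 (ENSMUSG00000035226, chromosome 2, 163859756 to 163918973) encodes a short member of the Rim scaffold family. It was at 66.2, 67.2 and 74.1 CPM in Control and 73.5, 80.6 and 89.8 CPM in cKO. The lowest cKO library overlapped the highest Control library, and the log2 fold change was 0.24 (SE 0.05, adjusted p = 0.0147). Syt16 (ENSMUSG00000044912, chromosome 12, 73997624 to 74267916), a further synaptotagmin, was at 55.4, 60.3 and 64.1 CPM in Control and 60.6, 72.5 and 79.0 CPM in cKO, with overlap (log2 fold change 0.24, SE 0.06, adjusted p = 0.0346).

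The calls of Rims4 and Syt16 were lost in 4 and 12 of 24 alternative settings, and those of Syt17, Synpr and Syt13 in 1, 1 and 2. Without the 2 libraries with high Xist the call was lost for Rims4 (log2 fold change 0.23, adjusted p = 0.0574) and Syt16 (0.19, adjusted p = 0.133). The 3 lower genes were called in that fit, Syt17 at −0.45, Synpr at −0.66 and Syt13 at −0.25. Sequencing lane, as the library files name it, split the replicates into 1 to 3 and 4 to 6. In lane 1 alone Syt17 was not called (−0.38, adjusted p = 0.0587), nor were Rims4 (0.20, adjusted p = 0.338) and Syt16 (0.11, adjusted p = 0.650). In lane 2 alone Synpr (−0.62, adjusted p = 0.0605), Syt13 (−0.22, adjusted p = 0.405), Rims4 (0.28, adjusted p = 0.154) and Syt16 (0.36, adjusted p = 0.0566) were not called. Leaving out 1 library at a time ended only the call of Syt16, without cKO replicate 1, 5 or 6 or any of Control replicates 2 to 6.

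**Figure D2:**
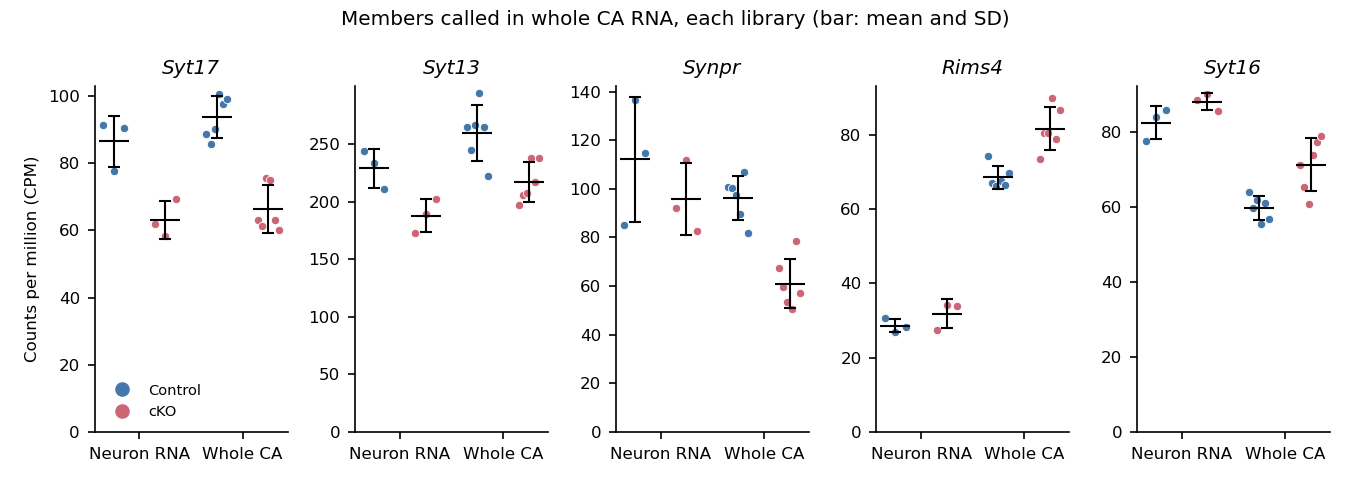
CPM of the 5 genes called in whole CA RNA, 1 point per library, with neuron RNA beside it and a bar for the mean and SD. Every cKO point of Syt17 lies below the Control points of the same material, whereas the points of Synpr are apart in whole CA and overlap in neuron RNA.

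The genotype effect in neuron RNA was compared with that in whole CA RNA by an interaction term, the neuron effect minus the whole CA effect. None of the 41 genes passed it (smallest adjusted p = 0.479, 7 of the 41 at an unadjusted p under 0.05, and 0 called by DESeq2), beside 0.16% of 17523 genes that passed and 8.11% at an unadjusted p under 0.05. Syt17 had an interaction of 0.05 (adjusted p = 0.912), with the effects of −0.47 and −0.51 given above. Synpr stood at 85.3, 136 and 115 CPM in the neuron Control libraries and 92.3, 112 and 82.9 CPM in cKO. This was a log2 fold change of −0.24 (SE 0.17, adjusted p = 0.495), and its interaction was 0.44 (adjusted p = 0.580). Syt13 had neuron values of 243, 233 and 211 CPM in Control and 173, 189 and 202 CPM in cKO, with no overlap (−0.30, SE 0.10, adjusted p = 0.153). Unc13a had the smallest interaction p, with −0.32 (adjusted p = 0.479). Rims4 had neuron values of 30.7, 27 and 28.2 CPM in Control and 27.4, 34.1 and 34.0 CPM in cKO, overlapping (0.14, SE 0.10, adjusted p = 0.535). Syt16 had 77.5, 84.1 and 85.8 CPM in Control and 88.3, 90.2 and 85.6 CPM in cKO, where only cKO replicate 3 reached into the Control range (0.08, SE 0.08, adjusted p = 0.633). A difference between the materials was therefore not shown for any of these genes.

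By role, the calls fell among the synaptotagmins, the scaffold and the vesicle membrane proteins. The 14 synaptotagmins had a median log2 fold change of −0.08 in neuron RNA, with 11 negative, and 0.02 in whole CA. Syt1, the main calcium sensor of fast release in the forebrain, stood at 1383, 1600.4 and 1502 CPM in neuron Control libraries and 1431, 1619 and 1404 CPM in cKO. These values overlapped throughout, and the log2 fold change was −0.02 (SE 0.11, adjusted p = 0.931). In whole CA, Syt6 was at 6.64, 8.91 and 11.2 CPM in Control and 4.55, 6.52 and 8.27 CPM in cKO (−0.48, SE 0.14, adjusted p = 0.0711). Syt12 was at 23.2, 27.2 and 34.8 CPM in Control and 27.2, 35.3 and 40.1 CPM in cKO (0.32, SE 0.10, adjusted p = 0.0743). Both overlapped and neither was called by edgeR, while DESeq2 called Syt6 lower and Syt12 higher. DESeq2 thus called 7 of the 41 genes in whole CA, 4 lower and 3 higher. Over all genes it called 891 of 15362, 544 lower and 347 higher.

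None of the 4 SNARE genes was called in either material, where 2.75% and 4.17% of all genes were, so a count of 0 in 4 is near the background. Among Stx1a, Snap25, Vamp1 and Vamp2 the log2 fold changes ran from −0.14 to 0.22 in neuron RNA and from −0.02 to 0.13 in whole CA, and no unadjusted p was under 0.05. DESeq2 called none of them. Snap25 stood at 741, 1016 and 1088 CPM in neuron Control libraries and 1041, 1274 and 1029 CPM in cKO (0.22, SE 0.15, adjusted p = 0.504), with overlap. The complexins Cplx1 to Cplx3 and the Munc13 genes Unc13a to Unc13c had 6 negative values in neuron RNA, with a median of −0.10, and 3 of 6 in whole CA, with a median of 0.01. In whole CA, Unc13b was at 67.0, 78.8 and 86.3 CPM in Control and 60.6, 64.9 and 82.3 CPM in cKO, overlapping (−0.21, SE 0.08, adjusted p = 0.143).

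The 6 scaffold genes Rims1 to Rims4, Bsn and Pclo all had positive values in neuron RNA, from 0.01 to 0.18 with a median of 0.11, and none was called there (0 at an unadjusted p under 0.05, 0 by DESeq2). Pclo, which encodes Piccolo, stood at 425, 429 and 438 CPM in Control and 475, 474 and 523 CPM in cKO. Every cKO library was above every Control library, yet the log2 fold change of 0.18 (SE 0.09) had an adjusted p of 0.349. In whole CA the value of Pclo was −0.09 (adjusted p = 0.758). The Rab3 GTPases Rab3a to Rab3c, which tether vesicles through Rim, had medians of 0.06 in neuron RNA and 0.05 in whole CA. The synapsins Syn1 to Syn3, which hold the reserve pool of vesicles, had medians of −0.13 and −0.06. The vesicle glycoproteins Sv2a to Sv2c with Syp and Synpr had medians of −0.14 and −0.06. Reads of Syn1 and Timp1, and of Syn3 and Timp3, overlapping genes, cannot be told apart where counting did not use strand, which the kit does not mark.

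Other presynaptic genes were listed by function, and 65 of 69 could be tested. In neuron RNA 0 of the 65 were called by edgeR, beside 2.75% of all genes, with 3 at an unadjusted p under 0.05 (4.62%, beside 17.2%). DESeq2 called Doc2b and Rph3a lower there, where it called 840 of 19622 genes. In whole CA, 3 were called (4.62%), all lower, close to the 4.17% of all genes. Erc2, which encodes the active zone protein ELKS2 (CAST), was at 248, 273 and 293 CPM in Control and 200.1, 216 and 224 CPM in cKO, with no overlap (−0.36, SE 0.05, adjusted p = 0.000295). Rph3a, which encodes the Rab3 effector rabphilin, was at 307, 337 and 346 CPM in Control and 242, 266 and 315 CPM in cKO, with overlap (−0.30, SE 0.06, adjusted p = 0.00684). It was not called within either lane (adjusted p = 0.155 and 0.137). Ppfia2, which encodes the scaffold liprin-alpha-2, was at 159, 194 and 202 CPM in Control and 153, 154 and 170.5 CPM in cKO (−0.27, SE 0.06, adjusted p = 0.0156). Its call was lost in either lane, without the high-Xist libraries, and without cKO replicate 5, Control replicate 2 or Control replicate 5. Among 24 vesicle recycling genes and 4 genes of transmitter loading, 0 were called in either material by edgeR, which at these shares is near the background. For recycling, 0 in neuron RNA and 1 in whole CA had an unadjusted p under 0.05, and for loading these counts were 0 and 1, while DESeq2 called Ston2, an endocytic adaptor, lower in whole CA.

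Markers of several, but not all, cell types in the hippocampus moved beside these results. Over all genes, 2.75% were called in neuron RNA and 4.17% in whole CA. The summed CPM of 5 dentate granule cell markers was 280.3 to 290.4 in neuron Control libraries and 204 to 250.3 in cKO, and 2 of the 5, C1ql2 and Dsp, were called lower. In whole CA the sum was 188 to 233 in Control and 137 to 189 in cKO, with Calb1 and Dsp called. The sum of 6 CA2 and CA3 markers was 270.5 to 311 in neuron Control and 230 to 249 in cKO libraries (Amigo2 called), and 288 to 328 against 223 to 297 in whole CA (Amigo2, Grik4 and Iyd called). The sum of 4 CA1 markers was 416 to 499.9 against 323 to 392 in neuron RNA and 430.2 to 487 against 393 to 454 in whole CA, with Wfs1 and Spink8 called in both. Of 8 inhibitory neuron markers 0 were called in either material by edgeR or DESeq2, with 0 and 1 at an unadjusted p under 0.05. Of 6 oligodendrocyte lineage markers 0 were called in either material, with 0 at an unadjusted p under 0.05, and all 6 values were positive in neuron RNA. The 4 excitatory neuron markers summed to 2784 to 3321 CPM in neuron Control libraries and 2435 to 2815 in cKO (Neurod6 and Nrgn called lower), and to 6687 to 7569 against 6352 to 6922 in whole CA (Neurod6 called). In whole CA 3 of these 4 markers were lower and 1 was higher, at a log2 fold change of 0.16. The higher one had an unadjusted edgeR p under 0.05 and was not called. Neurod6, a transcription factor gene of pyramidal neurons, had log2 fold changes of −2.24 in neuron RNA and −1.78 in whole CA. Among vessel markers Kdr was called lower in both materials (−0.51 and −0.40), and among astrocyte markers Aqp4 was called lower in whole CA (−0.38). Microglial markers summed to 260.1 to 316 CPM in whole CA Control and 229 to 255 in cKO, with Cx3cr1 called. No marker of these lists was at 0 in all libraries of a group. Their part in the fall of Syt17, Syt13 and Synpr was not tested, and in bulk samples fewer cells of a type and less RNA per cell cannot be told apart.

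Between the materials, in Control libraries alone, 13 of the 41 genes differed by a log2 fold change of at least 1 at an adjusted p under 0.05, beside 46.2% of 16859 genes. They were lower in neuron RNA for 12, where 21% of all genes were lower. The lower genes included Unc13c (−3.58), Cplx1 (−2.25), Cplx2 (−2.12), Vamp2 (−1.93), Snap25 (−1.87), Rab3b (−1.84), Rab3c (−1.83) and Rab3a (−1.50). Unc13b alone was higher (1.55), beside 25.3% of all genes, at 267, 217 and 273 CPM in neuron RNA against 67.0, 78.8 and 86.3 CPM in whole CA. The median over the 41 genes was −0.36 and over all genes 0.07. Material, preparation, sequencing run and depth cannot be told apart in this comparison. Markers of astrocytes, oligodendrocytes, microglia and vessels were all called lower in neuron RNA, with list medians of −5.20 to −6.04. Some neuronal genes were lower as well: of 4 excitatory markers Camk2a, Neurod6 and Nrgn were called lower (list median −1.29), and of 8 inhibitory markers Npy and Pvalb. Of 5 dentate granule cell markers, by contrast, C1ql2 and Dsp were called higher (list median 0.66). Of 6 CA2 and CA3 markers 3 were negative and 3 positive, with Bok called lower, and of 4 CA1 markers Spink8 was called lower. Of the 65 other presynaptic genes 17 were called lower and 3 higher (30.8% in all), beside the 46.2% of all genes.

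H3K4me3 was shorter at many of the release genes in cKO neurons. Breadth was the summed length of the peaks touching a window of 1000 bp on either side of a gene's start sites. It could be assigned for 30 of the 41 genes; Syt4, Syt5, Syt7, Syt12, Syt13, Syt17, Snap25, Vamp2, Syn3, Rims2 and Rims4 were not analysed here. Breadth was called different for 12 of the 30, all shorter, beside 24.6% of 14205 genes called, 23.7% shorter and 0.824% longer. The median log2 change was −0.18 for the 30 genes and −0.09 for all, and 26 of the 30 values were negative, beside 76.1% of all.

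Syt1 spanned 7134, 7343, 7669 and 7719 bp in Control replicates 1 to 4 and 4774, 4819, 5063 and 4957 bp in cKO. The mean fell by 34.3% with no overlap (log2 change −0.60, SE 0.04, limma adjusted p = 5.56e-05). Sv2b, which encodes a vesicle glycoprotein of excitatory neurons, spanned 5377, 5503, 6146 and 5569 bp in Control and 2157, 2394, 2685 and 2627 bp in cKO. The mean fell by 56.3% (−1.17, SE 0.08, adjusted p = 4.47e-05). Syn1, the gene of synapsin I, spanned 4394, 4600, 4631 and 4627 bp in Control and 1712, 1913, 3204 and 2343 bp in cKO. The mean fell by 49.7% (adjusted p = 0.0042). The cKO libraries of Syn1 ranged widely, and the longest still lay below every Control library.

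Syp, the gene of synaptophysin, spanned 3588, 3753, 3656 and 3641 bp in Control and 2324, 2529, 2632 and 2531 bp in cKO (−0.53, adjusted p = 0.000136). Vamp1, a vesicle SNARE, spanned 3090, 2392, 2455 and 2507 bp in Control and 1648, 1938, 1765 and 1771 bp in cKO (−0.52, adjusted p = 0.00388). Bsn, the gene of Bassoon, spanned 4270, 4951, 6015 and 4283 bp in Control and 3343, 3236, 3661 and 3316 bp in cKO (−0.50, adjusted p = 0.0133). Rims1, the gene of the scaffold RIM1, spanned 4810, 4962, 4894 and 4799 bp in Control and 3288, 3645, 3389 and 4283 bp in cKO (−0.41, adjusted p = 0.00744). In each of these 4 genes every cKO library was shorter than every Control library. The other 5 were Syt10 (−0.51), Syt3 (−0.40), Syn2 (−0.33), Sv2a (−0.26) and Syt11 (−0.22), of which only Syt11 overlapped.

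Some starts showed no such difference. Stx1a, the gene of the plasma membrane SNARE syntaxin-1A, spanned 1745, 1685, 1689 and 1848 bp in Control and 1757, 1754, 1628 and 1593 bp in cKO (−0.05, adjusted p = 0.543). Sv2c spanned 3354, 3389, 3340 and 3471 bp in Control and 3167, 3649, 3630 and 3542 bp in cKO (0.04, adjusted p = 0.604). Both overlapped between genotypes. In all, 14 of the 30 genes had every cKO library below every Control library, beside 28.3% of all genes.

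**Figure D3:**
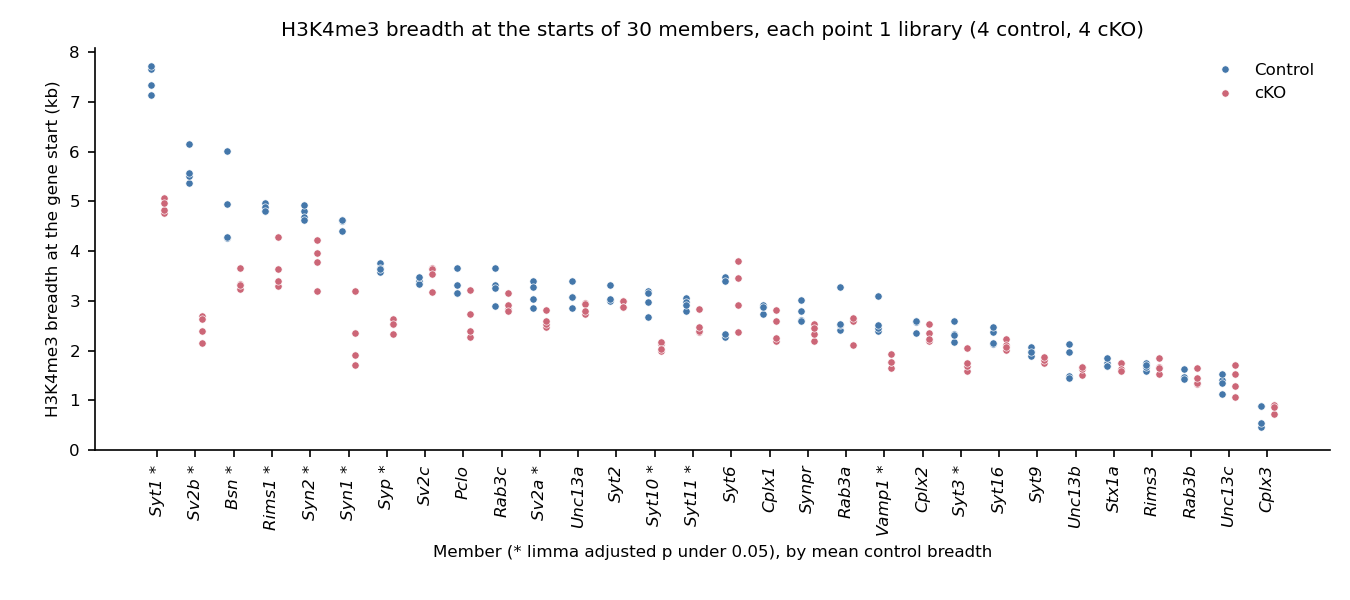
H3K4me3 breadth in kb at the start of the 30 genes with an assigned start, 1 point per library, ordered by mean Control breadth, with an asterisk for a limma adjusted p under 0.05. Syt1 is the broadest in Control, and the cKO points of Syt1, Sv2b and Syn1 lie well below their Control points.

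The 12 calls sat at the broader starts. In classes of mean breadth over the 8 libraries, chosen after the data were seen, 7 of the 11 release genes of at least 3000 bp were called shorter, beside 61.1% of 2727 gene starts of that class. From 2000 to 3000 bp the count was 5 of 12, beside 27.3% of 4773. From 1000 to 2000 bp it was 0 of 6, beside 7.22% of 4600, and Cplx3, under 1000 bp, was not called. The Control breadth had a median of 2905 bp over the 30 genes and 2138.5 bp over all. The share called among the broadest release genes was thus close to that of other gene starts as broad.

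Syt11 lost its call in 9 of 15 alternative settings, Sv2a in 5 and Syn2 in 3, among them the fits without Control replicate 3. Without it the adjusted p was 0.091 for Syt11, 0.055 for Sv2a and 0.0584 for Syn2. Syt11 was also lost without cKO replicate 1, 2 or 4 or Control replicate 2 or 4, Sv2a without cKO replicate 1 or 3 or Control replicate 4, and Syn2 without cKO replicate 4. Syt11 was not called with lane as a term (adjusted p = 0.0609) and Rims1 not with a window of 2500 bp (−0.27, adjusted p = 0.0611). In lane 1 alone, replicates 1 to 3, 8 of the 30 were called, and Syt3 was among those lost. Each genotype had its own input library in peak calling, per the file headers, and the effect of the input cannot be told apart from that of the genotype.

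The 250 bases before the start of 3 genes with shortened H3K4me3 and 2 without are printed to show the sequence under the mark, with CpG pairs in capitals. They come from RefSeq on GRCm38.p6 and read 5′ to 3′ on the gene's own strand. Syn1 lies at chrX:20920919-20921168 (minus strand), Syt1 at chr10:109010976-109011225 (minus), Sv2b at chr7:75308387-75308636 (minus), Stx1a at chr5:135023232-135023481 (plus) and Sv2c at chr13:96132578-96132827 (minus).
Syn1: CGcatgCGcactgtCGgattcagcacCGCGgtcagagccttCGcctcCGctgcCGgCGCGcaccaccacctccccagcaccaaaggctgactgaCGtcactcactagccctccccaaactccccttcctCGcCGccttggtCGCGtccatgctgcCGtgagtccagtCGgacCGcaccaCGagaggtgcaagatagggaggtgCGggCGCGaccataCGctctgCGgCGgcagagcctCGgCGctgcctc
Syt1: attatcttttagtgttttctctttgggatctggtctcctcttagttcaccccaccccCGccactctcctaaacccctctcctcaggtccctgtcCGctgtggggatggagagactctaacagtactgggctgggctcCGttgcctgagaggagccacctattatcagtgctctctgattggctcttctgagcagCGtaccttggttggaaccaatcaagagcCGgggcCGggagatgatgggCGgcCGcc
Sv2b: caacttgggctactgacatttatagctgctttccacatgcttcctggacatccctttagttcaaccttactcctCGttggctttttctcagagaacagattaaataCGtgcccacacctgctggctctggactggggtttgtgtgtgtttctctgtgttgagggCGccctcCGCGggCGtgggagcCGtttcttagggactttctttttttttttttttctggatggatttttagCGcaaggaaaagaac
Stx1a: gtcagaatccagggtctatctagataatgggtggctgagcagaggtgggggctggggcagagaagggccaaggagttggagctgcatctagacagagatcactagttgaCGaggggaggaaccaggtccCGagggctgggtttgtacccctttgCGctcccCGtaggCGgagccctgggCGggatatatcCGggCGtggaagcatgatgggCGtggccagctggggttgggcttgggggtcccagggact
Sv2c: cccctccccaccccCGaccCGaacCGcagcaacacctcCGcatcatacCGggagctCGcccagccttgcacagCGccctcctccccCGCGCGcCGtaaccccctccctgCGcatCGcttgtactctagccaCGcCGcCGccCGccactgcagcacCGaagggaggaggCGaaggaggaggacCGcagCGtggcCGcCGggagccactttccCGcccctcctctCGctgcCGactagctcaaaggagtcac
The printed starts of the shortened genes held 27 CpG pairs (Syn1), 8 (Syt1) and 8 (Sv2b). Those of the genes not called held 9 (Stx1a) and 26 (Sv2c), so both kinds spanned low and high CpG counts. Only 1 of 2 starts of Syt1 and 1 of 4 of Sv2b is printed. The starts not printed held 5 CpG pairs at Syt1 and 0, 2 and 7 at Sv2b, and breadth was summed over all starts of a gene. Over 40 promoters of 30 release genes the median was 13 CpG pairs and 61% G and C, beside 6 and 52.4% over all 32851 promoters. The cAMP response element TGACGTCA was in 2.5% of these 40 (Syn1), beside 1.55% of all, and the palindromic NRF1 motif was likewise in 2.5% (Bsn), beside 0.782% of all. Both motifs read the same on either strand, so a search of 1 strand covers both, and they were found in different genes, so they did not overlap. A match is a description of letters, not a bound site.

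RNA was compared at the starts with shorter H3K4me3. None of the 12 genes with shorter H3K4me3 was called in neuron RNA by edgeR, where the smallest adjusted p was 0.169, and DESeq2 called only Syt17 among all 41. Over all genes, 2.75% were called in neuron RNA. Of 2954 genes with shorter H3K4me3 and a tested RNA level 4.64% were called, 4.16% lower. Of 8275 genes not called shorter 1.89% were, 1.28% lower. At these shares 0 of 12 is near the background and cannot show whether the release genes differ. The RNA log2 fold changes of the 12 genes ran from −0.31 to 0.08 with a median of −0.03. The 18 genes not called for H3K4me3 ran from −0.35 to 0.18 with a median of −0.04. Sv2b, with the largest loss of breadth, stood at 483, 581 and 526 CPM in Control and 486, 579 and 541 CPM in cKO (0.00, SE 0.11, adjusted p = 0.998). Syn1 stood at 259, 209.7 and 212 CPM in Control and 181, 216 and 226 CPM in cKO (−0.14, SE 0.12, adjusted p = 0.575). Syp stood at 581, 548 and 537 CPM in Control and 468, 525 and 531 CPM in cKO, every cKO library lower (−0.14, SE 0.09, adjusted p = 0.474). A p above the threshold does not show that the levels were equal. Syt17, the gene called lower in neuron RNA, was not among the starts that could be assigned. Of the genes called in whole CA RNA only Synpr and Syt16 had an assigned start. At Synpr, lower in RNA, H3K4me3 spanned 2585 to 3018 bp in Control and 2201 to 2531 bp in cKO. It did not overlap and was not called (−0.20, limma adjusted p = 0.0565). At Syt16, higher in RNA, it overlapped (−0.11, limma adjusted p = 0.236).

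**Figure D4:**
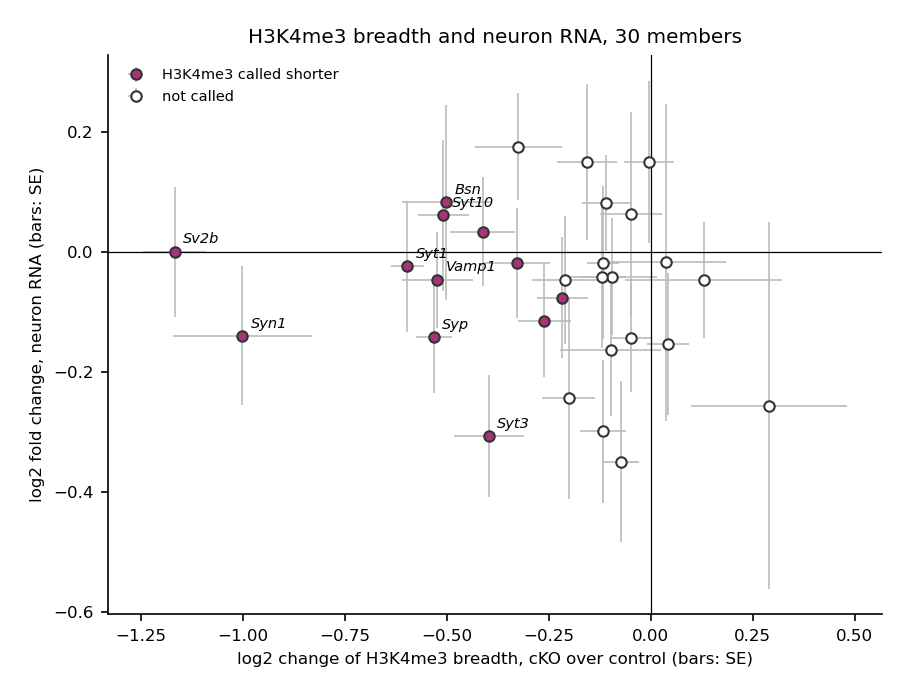
Log2 change of H3K4me3 breadth (x axis) against log2 fold change in neuron RNA (y axis), cKO over Control with SE bars, for 30 genes, filled where H3K4me3 was called shorter. The filled points reach −1.17 on the x axis while staying between −0.31 and 0.08 on the y axis.

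H3K4me1 peaks summed to a greater length at some of the same starts. A peak counts with its whole length once it touches the window. The sum can therefore also grow when a flanking peak newly reaches the window. H3K4me1 was called longer in cKO at 2 of 29 genes tested and shorter at none, beside 5.34% of 16940 genes called, 1.68% longer and 3.67% shorter. At an unadjusted p under 0.05 there were 1 lower and 5 higher, with no other tool run. The share of all genes at that unadjusted threshold was not counted. At Syt1 H3K4me1 covered 472, 482, 752 and 591 bp in Control and 9496, 10642, 8327 and 8064 bp in cKO. The genotypes lay far apart (log2 change 3.79, SE 0.17, limma adjusted p = 2.2e-05). At Syn2, the gene of synapsin II, it covered 9999, 10098, 10293 and 9529 bp in Control and 14818, 14302, 13585 and 15028 bp in cKO, with no overlap (0.53, SE 0.10, adjusted p = 0.0212). This length was summed over 2 start sites. At position 115134902 the mean went from 601 bp in Control to 4795 bp in cKO, and at position 115238994 from 9379 to 9638.5 bp. The call of Syn2 was lost without cKO replicate 1, cKO replicate 4 or Control replicate 4 and with a window of 2500 bp. With that window its log2 change was 0.12 (limma adjusted p = 0.629).

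Rims1, Sv2b and Syn1 also had every cKO library longer without passing the test. At Rims1 H3K4me1 covered 1242, 634, 0 and 467 bp in Control and 3284, 3095, 2039 and 4087 bp in cKO (2.69, adjusted p = 0.0991). At Sv2b it covered 18359, 4600, 9721 and 16645 bp in Control and 28194, 21746, 21731 and 19782 bp in cKO, summed over 4 start sites (1.06, adjusted p = 0.235). At Syn1 it covered 0, 972, 937 and 588 bp in Control and 987, 12565, 1028 and 3601 bp in cKO (2.39, adjusted p = 0.280), where cKO replicate 2 was longest by far. The genotypes did not overlap for 5 of the 29 genes in the longer direction, beside 4.57% of all genes, and for Syt16 and Cplx1 in the shorter direction, beside 9.38%.

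All 5 were among the 11 genes that had shorter H3K4me3 and were tested for both marks. Over all gene starts with shorter H3K4me3, 9.37% of 3298 had every cKO library longer in H3K4me1, and over the rest 2.58% of 10562, where the release genes gave 0 of 18. Among starts with H3K4me3 of at least 3000 bp the share was 11.1% of 2670, and the release genes gave 5 of 10. This comparison was chosen after the data were seen and carries no test.

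**Figure D5:**
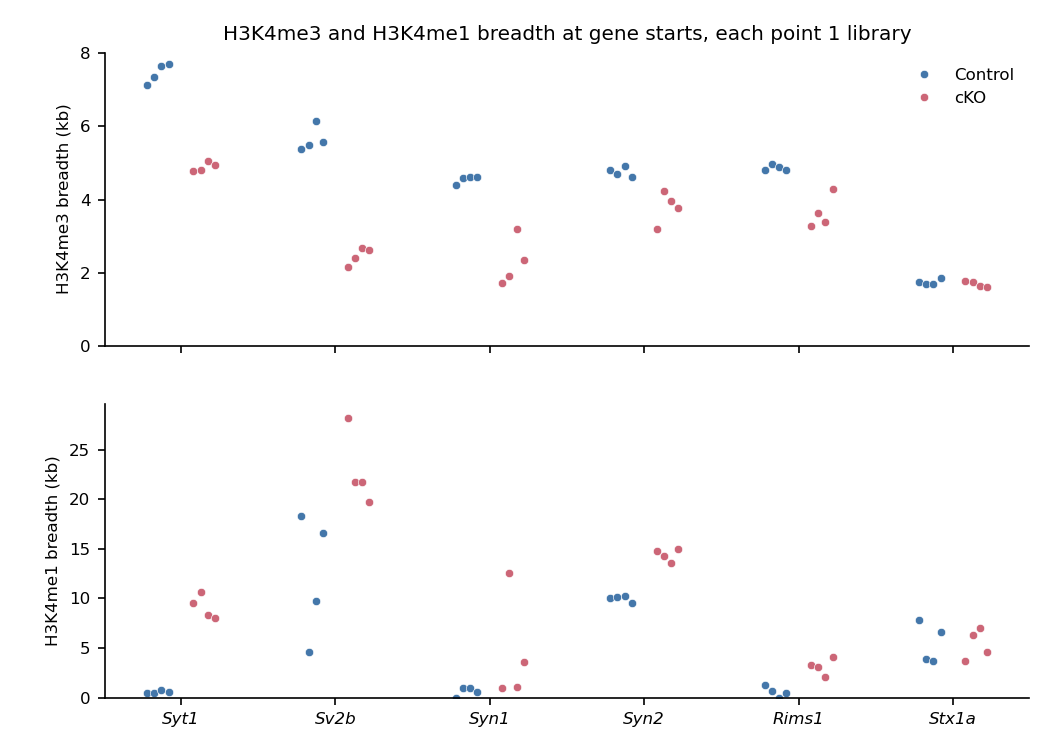
H3K4me3 breadth (upper panel) and H3K4me1 breadth (lower panel) in kb for 6 genes, summed over the start sites of each gene, 1 point per library. At Syt1, Sv2b, Syn1, Syn2 and Rims1 the cKO points are lower for H3K4me3 and higher for H3K4me1, and at Stx1a the H3K4me3 points of the genotypes overlap.

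The acetylation marks gave 1 call among these starts. H3K27ac was called at 1 of 29 genes, Syt6, which was shorter, beside 0.567% of 13938 genes called and 0.423% shorter. It covered 551, 183 and 229 bp in the 3 Control libraries and 0 bp in all 4 cKO libraries (−1.97, limma adjusted p = 0.0443). A length of 0 means that no peak was called. Syt6 met the need for a peak in at least 3 libraries only through Control, so fits without a Control library did not test it. The call was lost in all 8 alternative settings that gave a value, including each fit without a cKO replicate. The test cannot decide about Syt6, because the gene entered it only through the group with peaks. At an unadjusted p under 0.05 there were 2 of 29, Syt6 shorter and Sv2b longer. At Sv2b H3K27ac covered 3578, 4380.0 and 4908 bp in Control and 6953, 7179, 7379 and 5298 bp in cKO. Every cKO library was longer, and the change was not called (0.63, SE 0.16, adjusted p = 0.269). H3K9ac was called at 0 of 30 genes, beside 1.21% of 14425 genes called and 1.03% shorter. At an unadjusted p under 0.05 there were 9 of 30, all shorter, with no other tool run. For both acetylation marks the share of all genes at that unadjusted threshold was not counted, so these unadjusted counts have no background beside them. Rims1 had the smallest adjusted p for H3K9ac (−0.59, adjusted p = 0.0763). Vamp1 covered 2199, 2060, 2028 and 2674 bp of H3K9ac in Control and 1223, 1290 and 1598 bp in cKO, with no overlap (−0.67, adjusted p = 0.083). The genotypes did not overlap in the shorter direction for 7 of the 30, Syt6, Vamp1, Rims1, Bsn, Rab3c, Syn1 and Sv2b, beside 11.8% of all genes.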

How the data were processed

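The deposited RNA files hold raw read counts per Ensembl gene for each library, and the deposited ChIP files hold peaks of each library with their length and the caller's values. Peaks were called with MACS 2.1.0.20140616, or 2.1.1.20160309 for H3K4me3, at a q cutoff of 0.1, per the file headers, with broad calling for H3K4me1. The authors' −log10 q-values in the deposited files were used for an alternative that kept peaks of at least 5. The build is mm10 (GRCm38), per the submitters' processing notes. The RNA aligner, the annotation and the strand of counting are not given in the sources used here.

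The 41 genes, their roles and the other gene lists were chosen with earlier results of these data known. Genotype effects on counts were fitted with edgeR 4.0.16 (quasi-likelihood test, TMM, filterByExpr), with Benjamini-Hochberg adjustment over all genes tested and calls at an adjusted p under 0.05. CPM are counts scaled to the sum of all gene counts of a library, and log2 fold changes come from the fit. Peaks were merged per library and log2(bp + 100) was tested with limma 3.58.1 over genes with a peak in at least 3 libraries, so a change in height inside a peak is not measured. Start sites and promoters came from RefSeq on GRCm38.p6. Genes were named if called, or with the 3 smallest p-values otherwise in each RNA material, together with genes that define a role. Alternatives were DESeq2 1.42.0, other scaling, filters, thresholds, windows and offsets, replicate blocks, single lanes, and each library left out in turn. Leaving out the libraries with high Xist, lane terms, and lane 1 alone for H3K4me3 were chosen after seeing the data. A further gene by which some whole CA libraries stood apart, and the fit without them, are not reported here. The scripts were tested on simulated data.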

Additional observations from a re-analysis of the deposited data

Results flagged for a closer look

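Over the named genes, 44 groups of libraries were examined for a single library far from the others, and 2 had one; chance gives about 1 in 20. H3K4me3 breadth at Syn1 was 4394 bp in Control replicate 1, against 4600 to 4631 bp in the other Control libraries. H3K4me3 breadth at Vamp1 was 3090 bp in Control replicate 1, against 2392 to 2507 bp in the others. Both calls were kept without that library.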

How the results depend on the processing

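For the genes called, and the 3 with the next smallest p in each RNA material, no value changed direction in any setting run: 509 kept their side of the threshold, 68 lost a call and 13 gained one. In neuron RNA the genes called numbered 930 at an adjusted p under 0.1, 840 with DESeq2 and 327 with the replicate block, and 207 to 482 with 1 library left out. Of the members, 0 were called there with a fold minimum of 0.5 (absolute log2) and 0 to 1 with 1 library left out. In whole CA the genes called numbered 288 at that fold minimum, 207 in lane 1 and 224 in lane 2, and 467 to 669 with 1 left out. Members called there were 2, 2 and 1 in the same order, 3 without the high-Xist libraries, 7 with the replicate block and 4 to 7 with 1 left out. Interaction calls were 69 with no filter, 75 with DESeq2 and 18 to 32 with 1 left out. For H3K4me3, lane 1 alone gave 2083 genes, and members ran from 9 to 13 with 1 left out. For H3K4me1, −log10 q of at least 5 gave 247 genes and 0 members, and the block gave 364 genes and 1 member, with 1 to 3 members when 1 was left out. For H3K27ac, a peak in every library gave 30 genes, the block 0, a lane term 49 and 1 left out 13 to 84. Its members were 0 under these settings, with −log10 q of at least 5, with a window of 2500 bp and with an offset of 1000 bp, and 0 to 1 with 1 left out. For H3K9ac, the offset of 1000 bp gave 269 genes, the block 2 and 1 left out 60 to 229. Its members were 1 with −log10 q of at least 5, 2 with the 2500 bp window, 1 with that offset and 0 to 1 with 1 left out. The cause of these shifts was not tested. The block also ended the calls of Syt11 for H3K4me3 (adjusted p = 0.0589), Syn2 for H3K4me1 (adjusted p = 0.148) and Syt6 for H3K27ac (adjusted p = 0.331). Other genes given as examples of a role were not followed through the settings. Replicate numbers did not pair the libraries throughout: same-numbered libraries correlated from −0.252 to 0.425 in neuron RNA, while whole CA ran from −0.0769 to 0.281 and the ChIP marks from −0.0912 to 0.0592. The same-numbered Control library was the closest for replicate 2 in neuron RNA and replicate 4 in whole CA. In ChIP this held for replicate 1 of H3K4me3, replicates 1, 2 and 4 of H3K4me1, replicate 3 of H3K27ac, and replicates 2 and 4 of H3K9ac. Depth limits the low genes most, such as Syt6 at under 12 CPM, and peak lists carry no height.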
